A study of Mus musculus with 11 samples.

Results

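The 7 genes described here, of 54532 in the count table, encode the precursor of the neuropeptide substance P (Tac1), its receptor (Tacr1), 3 related zinc peptidases that cut small peptides (Kel, Mme and Ece1) and 2 endothelins, peptides that such enzymes release or cut (Edn1 and Edn3). They were taken by name from the table of read counts, but the names were selected on the log2 fold changes and levels of the caerulein comparisons in these same libraries. Their values in the caerulein comparisons are therefore a description, with no test. Of the 7, 5 passed the filter on low counts, and Tacr1 and Edn3 did not.

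Whole pancreas of C57BL/6JRj mice was sequenced as polyadenylated RNA in 11 libraries, 1 per numbered mouse. Mice were 7 weeks old (young) or 18 months old (aged), and were untreated or had received intraperitoneal caerulein at 125 µg/kg in 4 hourly injections, a group labelled 5H. Caerulein is an analogue of the hormone cholecystokinin that drives acinar cells to secrete, and too much of it damages them. There were 3 untreated libraries of young mice and 2 of aged mice, and 3 caerulein libraries at each age. The labels of the untreated mice name no vehicle injection. Total counts ranged from 14223190 to 26537091 per library. The 12 acinar markers made up between 365300 and 390500 CPM (depth-scaled counts) in the untreated and between 268000 and 304000 CPM in the caerulein libraries, so the labelled tissue was present in every one. The library of young untreated mouse 2 stood apart, with 207 CPM over 10 B cell markers against at most 1.69 CPM in any other library, and values that it moved most are also given without it. In whole tissue, fewer cells of a type and less RNA per cell cannot be told apart.

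Substance P is one of the tachykinins, peptides that share a carboxy-terminal signature and are made by cutting a longer precursor. Sensory nerve fibres release it in the pancreas, where it acts through the neurokinin 1 receptor, the product of Tacr1, on vessels and immune cells, and it is known for its part in the swelling and inflammation of experimental pancreatitis. Membrane peptidases of the M13 family are among the enzymes that can end its action by cutting it. Mme encodes neprilysin, which degrades substance P and other small peptides. Ece1 encodes endothelin-converting enzyme 1, which releases the vasoconstrictor endothelin-1 from its precursor and can also cut substance P. Kel encodes the Kell protein, known as a red cell blood group antigen, which shows a preference for big endothelin-3 as substrate.

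The family signatures can be read in the coding sequences. All 3 peptidases carry the codons of the zinc-binding motif HEXXH, in which the 2 histidines and the glutamate, in capitals below, belong to the active site. The stretches were read from the GRCm38 genome with the GENCODE M21 annotation, each within 1 coding exon: exon 16 of Kel-201 on the minus strand (chr6:41688327-41688365), exon 18 of Mme-205 (chr3:63362009-63362047) and exon 17 of Ece1-201 (chr4:137957160-137957198). The capitals mark the same 3 positions in each.
Kel: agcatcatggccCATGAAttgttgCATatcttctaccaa
Mme: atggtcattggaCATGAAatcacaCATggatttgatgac
Ece1: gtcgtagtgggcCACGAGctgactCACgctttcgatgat

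Tac1 carries the tachykinin signature FXGLM at 2 places of its precursor, shown because reads of the gene stand for both peptides. The first, split between exons 3 and 4 of Tac1-205 (chr6:7556729-7557217, plus strand, intron left out), ends substance P, and the second, split between exons 5 and 6 (chr6:7557740-7559148), ends neurokinin A. Capitals mark the codons of the signature.
Tac1 first: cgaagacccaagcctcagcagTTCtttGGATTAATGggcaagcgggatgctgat
Tac1 second: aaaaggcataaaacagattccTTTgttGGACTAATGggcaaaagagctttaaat
Of the complete coding transcripts of Tac1, 2 held both stretches and 1 held a single stretch. The gene-level counts do not separate them.

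Tac1 (ENSMUSG00000061762, mm10 chromosome 6, 7554879 to 7565834) was close to absent from untreated pancreas and present in every caerulein library. Levels below are CPM of TMM-scaled library totals, mean ± SD. Young untreated mice 1, 2 and 3 gave 2, 0 and 2 reads and both aged untreated libraries gave 0. Young caerulein mice 1, 2 and 3 gave 91, 98 and 80 reads (3.96, 3.87 and 4.16 CPM), and aged caerulein mice 1, 2 and 3 gave 767, 486 and 383 reads (29.3, 23.7 and 21.3 CPM). Neither treated group overlapped its untreated group, and the 2 treated groups did not overlap each other. In young mice the level went from 0.0758 ± 0.0657 to 4.00 ± 0.146 CPM, a log2 fold change of 5.77 ± 0.42 (SE), or a ratio of pooled reads of 60.0 with a 95% counting interval of 23.2 to 222. Without young untreated mouse 2, which had no Tac1 read, the log2 fold change was 5.01. In aged mice the level went from 0 reads to 24.7 ± 4.12 CPM, at least 256-fold higher when the untreated group is set at a floor of 3 reads. These intervals and the floor account for counting error alone.

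The difference between the ages in treated pancreas did not choose the names, but the treated levels in these same libraries were known when they were chosen. Its p is thus not independent of the choice and only sets the difference beside the spread between libraries. Tac1 rose by 2.63 ± 0.24 on the log2 scale in aged against young caerulein libraries, a pooled read ratio of 6.34 (5.57 to 7.24), with an edgeR quasi-likelihood p of 0.000851 after Benjamini-Hochberg adjustment over 14113 genes. All 3 aged libraries lay above all 3 young ones. Of all genes tested in this comparison 3.73% were called (526 genes), and Tac1 was the only 1 of the 5 tested members called. In the authors' deposited table the same difference was 2.61 with an adjusted p of 6.28e-43. In untreated pancreas, where 0.0921% of genes were called (13 by edgeR, 1320 at an unadjusted p below 0.05, 63 by DESeq2), no member was called, with edgeR adjusted p from 0.545 (Tac1) to 0.94 (Ece1). The difference between the aged and young responses was not called for any of the 5 tested members either. For Tac1 it was 6.20 ± 1.58 with an edgeR adjusted p of 0.182, in a comparison with 0.0142% of genes called (2 by edgeR, 1758 at an unadjusted p below 0.05, 279 by DESeq2). That value depends on the prior count, because the aged untreated group had no reads, and it is built from the comparisons that drew the gene. Without young untreated mouse 2, which had no Tac1 read, its adjusted p was 0.0272.

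**Figure D1:**
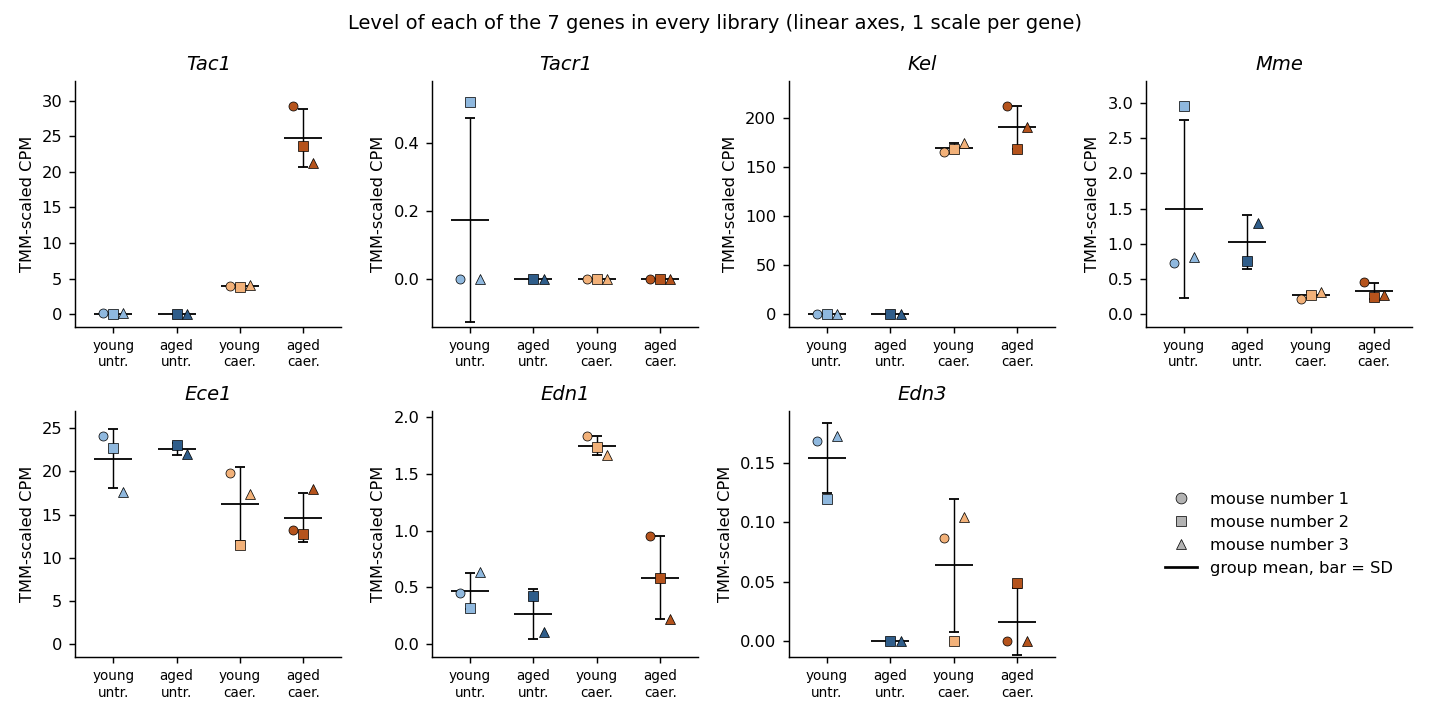
TMM-scaled CPM (vertical, linear, its own scale in each panel) of the 7 genes in each of 11 libraries by group (untr., untreated; caer., caerulein), with marker shape giving the mouse number, a line at the mean and bars for the SD. Kel and Tac1 sit near 0 in untreated and high in caerulein libraries, Tac1 is higher in aged than in young caerulein libraries, and the reads of Tacr1 come from 1 library.

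Tacr1 (ENSMUSG00000030043, chromosome 6, 82402334 to 82560104) had 13 reads in young untreated mouse 2 and 0 in the other 10 libraries. Set against a floor of 3 reads, the caerulein group of young mice was at least 4.86-fold lower than the untreated group, a bound that rests on that 1 library: without it both groups had 0 reads and no fold can be given. The floor of 3 reads over each group stood at 0.0988 CPM in aged untreated, 0.0445 CPM in young caerulein and 0.0463 CPM in aged caerulein libraries. The upper 95% counting limit of a count of 0 was higher, at 0.1215, 0.05465 and 0.05699 CPM in the same order. With that limit the bound in young mice was 3.95-fold. The library with the Tacr1 reads is the one with 207 CPM of B cell markers, 153 CPM of T cell markers and 442 CPM of adipocyte markers, and the part of those cells in the Tacr1 reads was not tested. The other tachykinin genes were as scarce. Tac2 had no read in any library, Tac4 had 1 in all, the neurokinin 2 receptor gene Tacr2 had 1 in young and 7 in aged caerulein libraries and none elsewhere, and the neurokinin 3 receptor gene Tacr3 had at most 2 in any group.

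Kel (ENSMUSG00000029866, chromosome 6, 41686330 to 41704339) was the member with the greatest change in young mice. Reads in young untreated mice 1, 2 and 3 were 1, 2 and 5, and in aged untreated mice 2 and 3 they were 3 and 0. Young caerulein mice 1, 2 and 3 gave 3788, 4251 and 3350 reads (165, 168 and 174 CPM), and aged caerulein mice gave 5548, 3440 and 3437 reads (212, 168 and 191 CPM). Every caerulein library lay far above every untreated one. The log2 fold change was 10.24 ± 0.39 in young mice, the highest fitted value of the 14113 genes tested, and in aged mice the ratio of pooled reads was 1943 (counting interval 665 to 9423), from 3 untreated reads that all came from mouse 2. The fitted log2 fold change in aged mice was 9.54 without aged untreated mouse 3 and 14.98 without mouse 2, which leaves no untreated read and depends on the prior count. Between the ages after caerulein Kel was not called. The levels were 169 ± 4.64 (n = 3) in young and 190 ± 22.1 CPM (n = 3) in aged libraries, the groups overlapped, and the log2 difference of 0.17 ± 0.22 had an edgeR adjusted p of 0.755. That p does not show that the levels are the same.

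Kell is best known on red cells. The summed level of 13 erythroid markers was 20.1 to 155 CPM in young untreated, 12.9 to 20.4 in aged untreated, 12.2 to 19.9 in young caerulein and 13.7 to 26.9 CPM in aged caerulein libraries. None of the 5 erythroid markers tested was called higher after caerulein at either age, and in young mice all 5 were called lower, with the highest untreated level in mouse 2 and the same 0 higher and 5 lower without that mouse. Of all genes tested, 27.5% were called higher and 24.7% lower in young mice, and 27% and 21.2% in aged mice. The red cell membrane genes Epb42 and Rhag had 0 reads in all 4 groups. Klf1, an erythroid transcription factor, had 8 and 7 reads in young and aged caerulein libraries, and 8 and 6 in untreated ones. Xk, which encodes the membrane protein that binds Kell on red cells, rose from 3.23 to 9.27 CPM in young (1.52 ± 0.23, edgeR adjusted p = 0.000268) and from 4.31 to 9.73 CPM in aged mice (1.19 ± 0.27, adjusted p = 0.00358). Of the 3 genes tested of its list (Xk, Xkr6 and Xkr8) it was the only one to rise, and Xkr8 fell in aged mice (-1.93 ± 0.71, adjusted p = 0.0435), a call that held in 6 of 17 alternative settings.

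Genes next to Kel were also higher after caerulein. The window of 100000 bases on each side, chosen after the files were seen, held 7 other genes, and 4 of them passed the filter. Trpv6, which encodes an epithelial calcium channel, lies 49925 bases from Kel on the same strand and rose by 5.08 ± 0.20 in young and 3.83 ± 0.23 in aged mice (edgeR adjusted p = 1.81e-08 and 4.41e-07). Its close relative Trpv5, 5561 bases away, had 2 reads in young untreated and 133 in young caerulein libraries, and 0 and 14 in aged ones. Ephb6, a receptor of the Eph family, rose by 2.94 ± 0.38 and 1.94 ± 0.46. The fourth, Gm37527, is an unconfirmed transcript on the same strand inside Kel, with 0 untreated and 260 and 191 caerulein reads, and how reads were shared between it and Kel follows the authors' counting. In young mice 27.5% of all genes tested were called higher, and in aged mice 27%. In the comparison of the ages after caerulein Trpv6 fell by 1.61 ± 0.17 in aged against young caerulein libraries (adjusted p = 0.000982), from 153 ± 23.7 to 50.01 ± 6.87 CPM. Ephb6 fell by 1.47 ± 0.35 (adjusted p = 0.0425, called in 9 of 19 alternative settings). Trpv5 was at -3.1 ± 0.76 and not called (edgeR adjusted p = 0.0559), but was called lower in 8 of 19 alternative settings. Kel was at 0.17 ± 0.22. Whether Kel and its neighbours differ in their age difference was not tested.

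**Figure D2:**
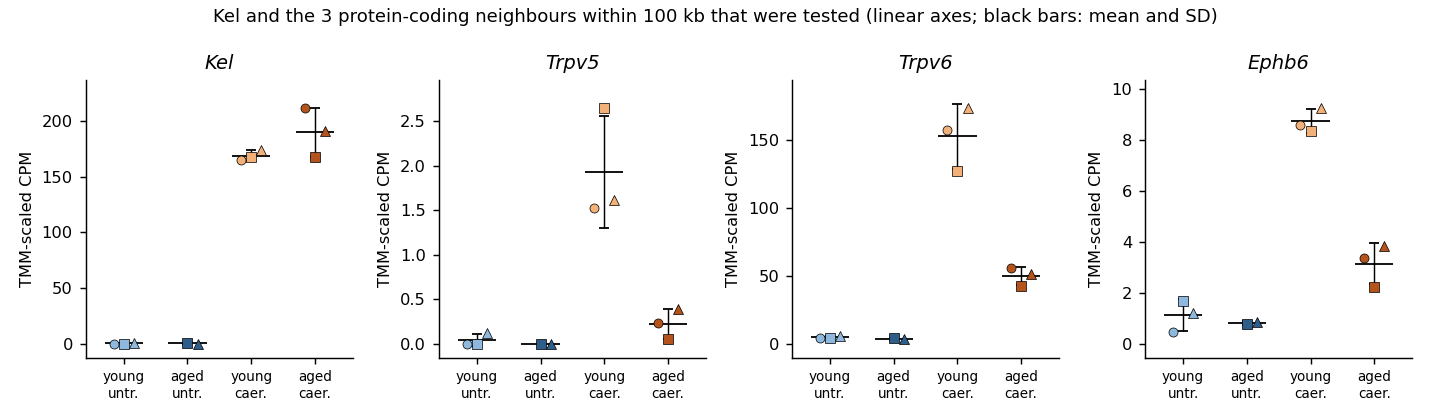
TMM-scaled CPM (vertical, linear, its own scale in each panel) of Kel and the 3 tested protein-coding genes within 100000 bases of it, in each library (untr., untreated; caer., caerulein; circle, square and triangle are mouse numbers 1, 2 and 3), with a line at the mean and bars for the SD. Trpv6 has a mean of 153 CPM in young and 50.01 CPM in aged caerulein libraries, while the Kel means are 169 and 190 CPM.

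The 250 bases before the start sites of Kel and Tac1, the members that were near 0 without caerulein and high with it, are shown from the RefSeq promoter table (build GRCm38.p6, read on the strand of the gene). Kel lies on the minus strand (chr6:41704326-41704575) and Tac1 on the plus strand (chr6:7554811-7555060). The start sites are those of RefSeq and lie inside the genes as counted, which begin at 41704339 for Kel and 7554879 for Tac1. Part of each stretch, with the Tac1 match nearer the RefSeq start, is thus inside the counted gene. Capitals mark matches to 6 motifs searched on both strands: the cAMP response element TGACGTCA, its core TGACG, the AP-1 site TGANTCA, the heat shock element GAANNTTC, and the CArG box and NF-kB site by their usual consensus.
Kel: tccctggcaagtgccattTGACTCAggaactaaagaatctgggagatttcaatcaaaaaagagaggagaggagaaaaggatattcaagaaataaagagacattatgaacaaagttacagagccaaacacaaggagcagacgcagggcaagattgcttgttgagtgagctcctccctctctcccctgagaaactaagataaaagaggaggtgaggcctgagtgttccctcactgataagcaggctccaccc
Tac1: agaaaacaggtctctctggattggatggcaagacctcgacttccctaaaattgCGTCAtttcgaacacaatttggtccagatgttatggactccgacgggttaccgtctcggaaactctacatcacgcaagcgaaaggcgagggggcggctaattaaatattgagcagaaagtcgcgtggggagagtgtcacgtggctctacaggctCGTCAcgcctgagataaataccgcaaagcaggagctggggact
The Kel stretch held 1 AP-1 match, whose first base is 232 bases before the start, and 6.75% of 32851 mouse promoters of the same length hold one. The Tac1 stretch held 2 core matches, 197 and 43 bases before the start, and 17.8% of promoters hold at least 1. The core lies inside the full element, which was in neither stretch. Among the other members an AP-1 match stood in 1 of 3 Mme entries and a core match in the Tacr1 entry, and the 4 Ece1 entries and those of Edn1 and Edn3 held none of the 6. A match is a string of letters and not evidence of binding.

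Mme (ENSMUSG00000027820, chromosome 3, 63241537 to 63386030), the gene of neprilysin, was lower in caerulein libraries at both ages. Young untreated mice 1, 2 and 3 gave 0.731, 2.96 and 0.806 CPM, aged untreated mice 2 and 3 gave 0.756 and 1.30 CPM, young caerulein mice gave 0.218, 0.277 and 0.312 CPM and aged caerulein mice gave 0.458, 0.244 and 0.278 CPM. The highest caerulein library lay below the lowest untreated one. All of these rest on few reads, 5 to 74 per library. The log2 fold change was -2.47 ± 0.61 in young and -1.63 ± 0.66 in aged mice. Young untreated mouse 2 held 74 of the 101 reads of its group and without it the young value was -1.55. Of all genes tested, 24.7% were called lower in young and 21.2% in aged mice. Between the ages Mme was not called, with 0.30 ± 0.64 after caerulein (edgeR adjusted p = 0.863) and -0.54 ± 0.63 untreated (adjusted p = 0.80). The untreated value turned to 0.43 without mouse 2.

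Ece1 (ENSMUSG00000057530, chromosome 4, 137862237 to 137965229), the gene of endothelin-converting enzyme 1, was present in every library of all 4 groups. Young untreated mice gave 24.1, 22.7 and 17.6 CPM, aged untreated mice 23.0 and 22.04, young caerulein mice 19.8, 11.5 and 17.4, and aged caerulein mice 13.2, 12.8 and 17.9 CPM. The young groups overlapped, while all aged caerulein libraries lay just below the aged untreated ones. Log2 fold changes were -0.40 ± 0.20 in young and -0.62 ± 0.23 in aged mice on TMM-scaled totals, but 0.09 and 0.01 on unscaled library totals, a scaling that moved the median of all genes from -0.06 to 0.43 and from 0.07 to 0.69. The direction of Ece1 after caerulein thus turned on the scaling. Between the ages it was not called in untreated (0.07 ± 0.23, edgeR adjusted p = 0.94) or in caerulein libraries (-0.15 ± 0.21, adjusted p = 0.772). The remaining M13 genes had few reads, with at most 5 in any group for Ece2, Mmel1, Ecel1 and Phex.

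Per length of gene model, the 3 peptidases changed order. Untreated Ece1 was at 4.05 ± 0.64 CPM per kb in young libraries, Mme at 0.13 ± 0.11 and Kel at 0.051 ± 0.0459. After caerulein Kel stood at 61.0 ± 1.67 CPM per kb in young and 68.6 ± 7.97 in aged libraries, above Ece1 at 3.06 ± 0.807 and 2.76 ± 0.54, with Mme at 0.0233 ± 0.00412 and 0.0283 ± 0.00999. Tac1 reached 1.18 ± 0.0429 CPM per kb in young and 7.28 ± 1.21 in aged caerulein libraries. It therefore stood below Ece1 in young and above it in aged treated pancreas, with no overlap of libraries in either. The authors' deposited FPKM gave the same order for these genes, for instance 59.4 ± 1.85 for Kel and 2.98 ± 0.786 for Ece1 in young caerulein libraries.

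**Figure D3:**
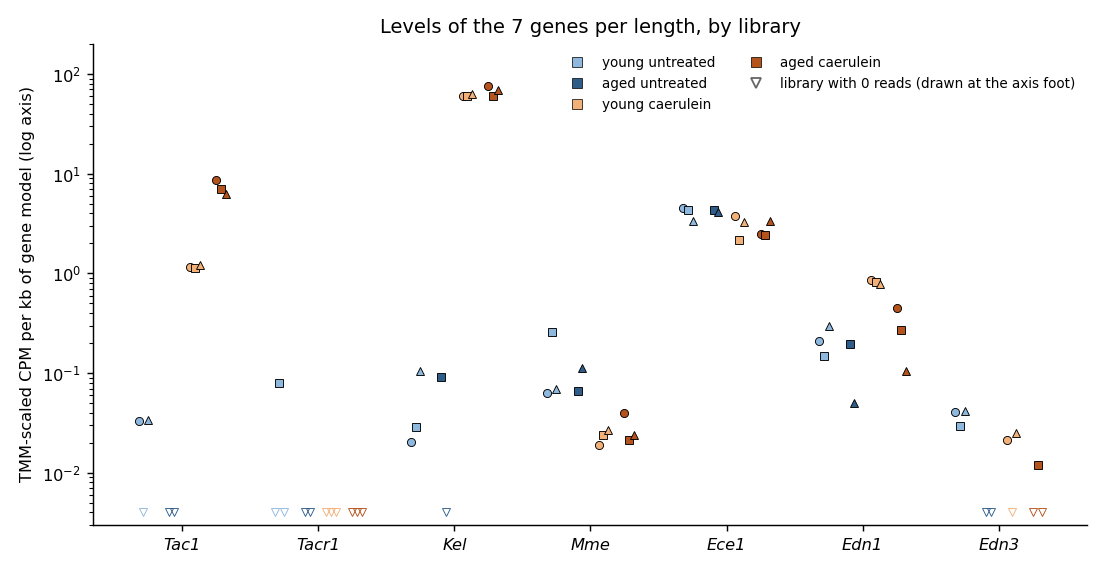
TMM-scaled CPM per kb of gene model (vertical, log axis) of the 7 genes in each library, coloured by group, with marker shape for the mouse number and open triangles at the foot for libraries with 0 reads. Ece1 has means between 2.76 and 4.25 in all groups, the Kel means in young libraries are 0.051 untreated and 61.0 after caerulein, and Mme lies lower in caerulein than in untreated libraries.

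Edn1 (ENSMUSG00000021367, chromosome 13, 42301476 to 42307990), which encodes the vasoconstrictor endothelin-1, was higher after caerulein in young mice. Young untreated mice gave 8, 8 and 11 reads (0.45, 0.32 and 0.633 CPM) and young caerulein mice 42, 44 and 32 reads (1.83, 1.74 and 1.66 CPM), with no overlap and a log2 fold change of 1.90 ± 0.55. Aged untreated mice gave 5 and 2 reads (0.42 and 0.108 CPM) and aged caerulein mice 25, 12 and 4 reads (0.955, 0.585 and 0.222 CPM), groups that overlapped, with a log2 fold change of 1.26 ± 0.72. That value was 0.52 without aged untreated mouse 3 and 2.41 without aged untreated mouse 2. All aged caerulein libraries lay below all young ones, at 0.587 ± 0.366 against 1.74 ± 0.0834 CPM (n = 3 each). That difference of -1.54 ± 0.53 did not pass the edgeR test over all genes (adjusted p = 0.151, unadjusted p = 0.0152). It passed when only the 2 treated groups were fitted (adjusted p = 0.0399), without young untreated mouse 2 (0.0431), and in the authors' deposited table (-1.56, adjusted p = 0.0285). Over all alternatives its adjusted p ranged from 0.0399 to 0.323. The test of the difference between the 2 responses gave -0.65 ± 0.93 (adjusted p = 0.812).

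**Figure D4:**
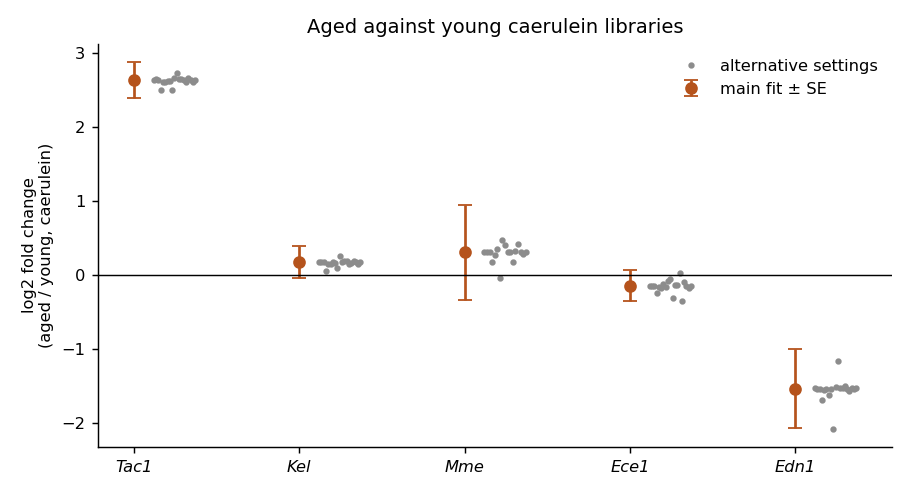
Log2 fold change of aged over young caerulein libraries (vertical) for the 5 members tested, with the edgeR value ± SE in colour and the values under 19 alternative settings, fewer where a setting dropped the gene, as grey points. Tac1 stays between 2.49 and 2.73 and Edn1 between -2.08 and -1.17, while Kel, Mme and Ece1 lie near 0.

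Edn3 (ENSMUSG00000027524, chromosome 2, 174760619 to 174784042), the endothelin whose precursor Kell prefers, was barely detected. Each young untreated library gave 3 reads, both aged untreated ones gave 0, young caerulein mice gave 2, 0 and 2, and aged caerulein mice 0, 1 and 0. The ratio of pooled reads in young mice was 0.396 with a counting interval of 0.0892 to 1.42, which includes no change. Between the untreated ages the reads were 0 in aged and 9 in young libraries. The counting interval of that ratio, 0 to 1.00 on TMM-scaled totals and 0 to 0.845 on library totals, included no change on the first scale and not on the second. In the group with the highest Kel level, aged caerulein, Edn3 had 1 read. The third endothelin gene, Edn2, had at most 3 reads in a group. The endothelin receptor genes Ednra and Ednrb were not called in any comparison, at -1.33 ± 0.63 and 0.18 ± 0.25 in young and -0.27 ± 0.75 and 0.64 ± 0.29 in aged mice after caerulein (edgeR adjusted p from 0.09 to 0.795).

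Nerve markers were low in all libraries. The 20 markers summed to 2.78 to 5.60 CPM in young untreated, 1.48 to 1.62 in aged untreated, 5.77 to 18.9 in young caerulein and 3.96 to 12.7 CPM in aged caerulein libraries. Of 8 tested, 2 were called higher after caerulein at each age, beside 27.5% of all genes tested in young and 27% in aged mice. None of the 8 was called between the ages after caerulein, where 3.73% of all genes were called. With 8 genes tested, that does not show that nerve content was the same at both ages. The sensory neuron genes Trpv1 and Scn10a had 0 reads in both caerulein groups, and Calcb had 0 and 1. Scn10a had 0 reads in the untreated groups too. Other markers of the list had more reads in young and aged caerulein libraries, with 21 and 12 for Scn9a, 38 and 13 for Prph, and 210 and 163 for Tubb3. Calca, which encodes the sensory neuropeptide CGRP often stored with substance P, had 1 untreated and 44 caerulein reads in young and 1 and 23 in aged mice. The 10 Schwann cell and glia markers summed to 34.9 to 61.7 CPM in young untreated and 200 to 232 CPM in young caerulein libraries, and to 30.3 to 38.1 and 111 to 123 CPM in aged ones. The part of nerve or glia in the Tac1 reads was not tested.

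Related genes outside the set moved in both directions after caerulein, to be read beside the 27.5% called higher and 24.7% called lower of all genes in young mice, and 27% and 21.2% in aged mice. On unscaled library totals those shares were 37.7% and 8.99% in young and 38.6% and 7.61% in aged mice, so the balance of higher and lower calls turned on the scaling. Of 19 other peptidases tested, 4 rose and 3 fell in young mice and 4 rose and 2 fell in aged mice, with medians of -0.18 and 0.23 beside -0.06 and 0.07 for all genes. On library totals 8 of these 19 were called higher and 1 lower in young mice, and 9 and 1 in aged mice. Prep, a cytosolic prolyl peptidase that can cut substance P, rose by 2.18 ± 0.11 in young and 2.22 ± 0.13 in aged mice (edgeR adjusted p = 9.76e-08 and 4.17e-07). Npepps rose by 1.73 and 1.62, Lap3 by 1.22 and 1.47, and Tpp2 by 0.66 and 0.77. The cell surface peptidases Anpep (-1.40 and -1.16) and Cpm (-0.84 and -1.15) fell at both ages, but the Cpm call was lost on library totals at both. Dpp4, which trims substance P from its amino end, fell in young mice (-1.56 ± 0.49, edgeR adjusted p = 0.0213). That call was lost without young untreated mouse 2 and on library totals. Ace, whose product also cuts substance P, was at 0.37 ± 0.17 and -0.30 ± 0.19, not called at either age.

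Among 14 enzymes that process peptide precursors, 2 rose and 2 fell in young and 3 rose and 2 fell in aged mice (medians 0.12 and 0.42). Furin, a proprotein convertase of the secretory pathway, rose by 1.09 ± 0.14 in young and 1.86 ± 0.17 in aged mice. It was also the 1 gene of the list called between the ages after caerulein, at 118 ± 6.16 CPM in young and 237 ± 29.1 CPM in aged libraries with no overlap (1.00 ± 0.14, edgeR adjusted p = 0.00338, called in 19 of 19 alternatives). Pam, which forms the terminal amide that substance P needs for activity, rose by 0.61 ± 0.11 and 0.82 ± 0.12 (adjusted p = 0.000719 and 0.000244). Pcsk6 rose in aged mice (0.82 ± 0.30, edgeR adjusted p = 0.0439, called in 10 of 19 alternatives). Pcsk4 (-2.40 and -2.54) and Pcsk7 (-0.75 and -0.83) fell at both ages, but the Pcsk7 call was lost on library totals at both. On library totals 4 of the 14 were called higher and 1 lower at each age.

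Of 12 other neuropeptide and vasoactive peptide genes tested, 3 rose and 2 fell in young and 2 rose and 4 fell in aged mice (medians 0.65 and -0.58). Adm2, which encodes a peptide of the adrenomedullin family, rose by 2.57 ± 0.36 and 2.48 ± 0.42, and Adm itself rose in young mice by 2.30 ± 0.51 (adjusted p = 0.00318) and was at 1.46 ± 0.58 in aged mice (adjusted p = 0.0579). Calca was called higher at both ages, but in aged mice the call held in 9 of 17 alternatives. Gal, the gene of galanin, fell from 136 to 25.1 CPM in young and from 91.2 to 17.1 CPM in aged mice (-2.44 ± 0.30 and -2.41 ± 0.32). Apln fell at both ages, and Penk and Nmb fell in aged mice. None of the 12 was called between the ages after caerulein.

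Of 16 receptors for such peptides tested, 2 rose and 4 fell in young and 1 rose and 4 fell in aged mice (medians -0.82 and -0.55). F2rl1, which encodes the trypsin-activated receptor PAR2 found on acinar cells and on sensory nerves that hold substance P, rose by 3.47 ± 0.24 and 3.21 ± 0.30 (edgeR adjusted p = 7.75e-07 and 8.63e-06). Bdkrb2, a bradykinin receptor gene, rose in young mice by 2.35 ± 0.43. Grpr, for gastrin-releasing peptide, fell by 3.84 and 3.99, and Vipr2, for vasoactive intestinal peptide, by 1.76 and 2.04. Ramp1, a subunit of the CGRP receptor, was the 1 receptor gene called between the ages after caerulein, at 21.8 ± 0.997 CPM in young and 10.4 ± 0.778 CPM in aged libraries with no overlap (-1.06 ± 0.20, adjusted p = 0.0159). That call was lost when any 1 of the 6 treated libraries was left out, with adjusted p up to 0.0757. Without young untreated mouse 2, the counts of these 4 lists in the caerulein comparisons moved by at most 1 gene in either direction, for instance to 3 receptor genes higher and 5 lower in young mice.

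**Figure D5:**
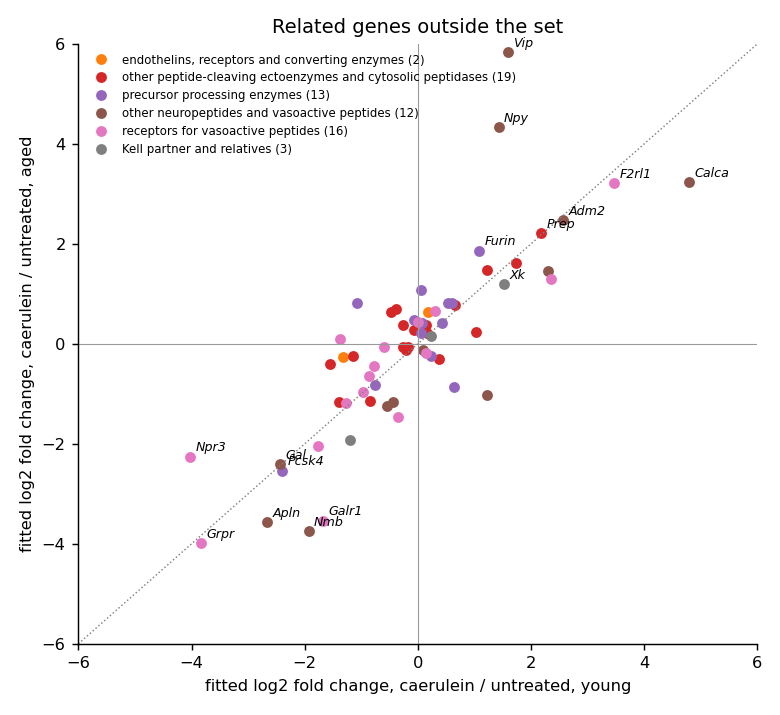
Fitted log2 fold change of caerulein over untreated in young (horizontal) and aged (vertical) mice for tested genes outside the set, 1 point per gene, coloured by list with the number drawn in brackets, a gene in 2 lists drawn once; the dotted line marks equal values. Prep, Furin and F2rl1 lie high at both ages and Gal and Grpr low, while Vip and Npy, with no aged untreated reads, have aged values that rest on the prior count.

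The genes whose log2 CPM ran most like that of a member over the 11 libraries were Qrich1, Sgms2 and Pdcd6 for Tac1 (Pearson r of 0.994, 0.994 and 0.993), Cand1, Kdm5c and Wiz for Kel (0.997, 0.996 and 0.996), and Lrtm2, Car9 and Pcyox1l for Edn1 (0.942, 0.942 and 0.926). Likeness to Mme was led by Daglb, Tnrc6c and Hdac1 (0.969, 0.968 and 0.965) and to Ece1 by Ptprb, Ypel2 and Plag1 (0.929, 0.928 and 0.927). These values describe 11 points that share 4 groups and their depths. Without young untreated mouse 2, Tnrc6c and Hdac1 fell to ranks 135 and 204 for Mme (0.932 and 0.926) and Daglb stayed first (0.974). By Spearman's rho over all libraries Cand1 was also first for Kel and Car9 was first for Edn1, but many of the others ranked far lower. Kdm5c and Wiz were at ranks 255 and 260 for Kel, and Qrich1, Sgms2 and Pdcd6 at 44, 436 and 21 for Tac1. For Mme, Daglb, Tnrc6c and Hdac1 were at 2, 370 and 103. Ptprb, Ypel2 and Plag1 stood at 63, 97 and 8 for Ece1, and Lrtm2 and Pcyox1l at 2 and 31 for Edn1.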

How the data were processed

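Polyadenylated RNA of whole pancreas was sequenced as paired reads in 11 libraries, per the labels' protocols. The submitters' processing notes name HISAT2 2.0.5 for alignment to mm10 and featureCounts 1.5.0-p3 for counting. The strand setting is not given in the sources used here, nor is the annotation release. Whole numbers, not normalised, fill the deposited table of counts, and it lists 54532 genes. The deposited FPKM values served only to compare levels between genes. Where the authors' table is named, its deposited log2 fold changes and adjusted p-values are quoted.

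From the counts, edgeR's filterByExpr over the 4 groups kept 14113 of 54532 genes. Libraries were scaled by TMM (factors 0.696 to 1.29). A single model of the 4 groups was fitted with edgeR 4.0.16 (R 4.3.3), tested by quasi-likelihood, and adjusted over every gene tested. Calls were made below 0.05. Ratios of pooled reads have exact 95% counting intervals. A group without reads was set at a floor of 3 reads over the group. Summed marker levels are CPM of unscaled totals. The method was tested on simulated data.

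The members and lists were chosen with earlier results of these data known. Genes named are the 7 members, up to 4 called genes of each list per comparison by smallest p, and the 3 genes most correlated with each tested member. Some were named after their values were seen: genes near Kel, single markers, genes with few reads, and the uncalled Ace, Vip and Npy. Alternatives were other scalings and filters, DESeq2 1.42.0, a fit of the compared groups alone, mouse numbers as a block, and each library left out. The labels do not say what a mouse number marks. Residuals of same-numbered libraries correlated over 0.1 in every pair between young untreated and young caerulein libraries (0.106 to 0.149, 3 pairs). They did not in every pair of any other comparison. Young untreated mouse 1 and young caerulein mouse 3, with different numbers, also reached 0.149. Over all groups, differently numbered libraries reached 0.303 and same-numbered ones 0.163. Pairing by number was thus not established, and the block was used only as an alternative. P-values measure the spread between numbered mice.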

Additional observations from a re-analysis of the deposited data

How the results depend on the processing

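The Tac1 difference between aged and young caerulein libraries was called in 19 of 19 alternatives, at 2.49 to 2.73 on the log2 scale. The Edn1 difference passed at -1.54 with the 2 treated groups fitted alone and with DESeq2 and young untreated mouse 2 left out (chosen after seeing the data), and ranged from -2.08 to -1.17 with 1 library left out. Counts of called genes in this comparison were 913 by DESeq2, 1738 by DESeq2 without that mouse, 215 on library totals, 814 with no filter, 1686 with the treated groups alone, and 171 (without young caerulein mouse 3) to 1921 (without young untreated mouse 2) with 1 library left out, beside 526. Untreated, they were 63, 86, 3, 707, 2 and 2 to 55 in the same order, beside 13. For the difference between the responses they were 279, 501, 0 and 674, and 0 to 311 with 1 library left out, beside 2, with no fit of fewer groups. The cause of these shifts was not tested. Total counts in both caerulein comparisons stayed within 1.5 times under every alternative, but on library totals the split was 5314 higher and 1269 lower in young mice (beside 3888 and 3488) and 5451 and 1074 in aged mice (beside 3806 and 2998).

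Values of members that changed sign under an alternative were these. On library totals Ece1 was at 0.09 in young and 0.01 in aged mice after caerulein, and at -0.17 between untreated ages. With 1 library left out, aged against young Ece1 ranged from -0.35 to 0.02 after caerulein and from -0.05 to 0.16 untreated, Kel untreated from -4.54 to 0.90, and Mme from -0.04 to 0.47 after caerulein and from -0.98 to 0.43 untreated. The difference of the responses ranged from -1.40 to 0.49 for Edn1, from -0.72 to 4.72 for Kel and from -0.15 to 1.28 for Mme. For Tac1 it passed with no filter (6.16), without young untreated mouse 2 (6.90), and by DESeq2 without that mouse (5.82). The Tac1 bound in aged mice was 208 with the upper 95% limit of a count of 0 and 393 on library totals.

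With the mouse number as a replicate block, 6874 genes were called in the young caerulein comparison (beside 7376). The counts of the related-gene lists there did not move. In the others, 6419 were called in aged mice after caerulein (beside 6804), and 345 genes were called between the ages after caerulein, 3 untreated and 2 for the difference of the responses. Tac1 kept its call there. Few reads limit Tacr1, Edn3, Mme and Edn1, and the 2 aged untreated libraries limit every comparison that uses them.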
